A study of Mus musculus with 8 samples.

Results

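Crypt base columnar (CBC) stem cells outside mitosis were read out from single-cell RNA sequencing of mouse small intestinal crypts. A barcode, standing for 1 droplet, was taken as such a cell where it held at least 3 unique molecular identifiers (UMIs, each 1 captured transcript) of Lgr5, Ascl2, Smoc2 and Gkn3 together, making up at least 0.03% of its UMIs. It also had to hold less than 0.15% of UMIs from the 6 mitotic genes Top2a, Ube2c, Cdk1, Ccnb1, Cenpf and Birc5. General limits of at least 1500 UMIs, at least 200 genes, at most 30% mitochondrial UMIs and less than 20% UMIs of Defa genes, the Paneth cell defensins, were set first. The rule found 684 of 28750 barcodes, 303 of 15987 in the control matrix (labelled WT) and 381 of 12763 in the knockout matrix (KO). These are called CBC barcodes here.

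The cells had been sorted for EpCAM, an epithelial surface protein, and for exclusion of the dead-cell dye DAPI. Per the study, they came from EDTA-released crypts of adult female mice. KO animals were homozygous for a CRISPR/Cas9 deletion of ieCtnnb1, an enhancer of Ctnnb1, in every tissue and not in the intestine alone. Per the study's methods, the controls carried an H11 reporter in which the enhancer core and a Shh promoter drive LacZ-iCre, so WT differed from KO by this allele as well, and both were on a C57BL/6 background. Although 4 samples are listed for each genotype, animals of a genotype had been pooled and the values came as 1 matrix per genotype with no map from barcode to animal. Each genotype was therefore 1 sample, no test between WT and KO was possible, no difference could be set against a spread between animals, and all intervals (95%, exact Poisson, Clopper-Pearson or conditional binomial) cover counting error only. Genotype, reporter allele, pool and library cannot be told apart.

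CBC cells lie between Paneth cells at the crypt base, divide throughout life and feed transit-amplifying cells that become absorptive or secretory. Wnt ligands bind Frizzled and LRP receptors and spare β-catenin, the product of Ctnnb1, from destruction, so that it can enter the nucleus and activate target genes with TCF factors. R-spondin bound by Lgr5 strengthens this signal, Notch restrains the secretory fate, EGF receptor ligands drive division and BMP signals oppose the stem cell state.

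Of the genes that chose or mark the cells, Lgr5 (chr10:115450311-115587780, minus strand, GRCm38) encodes the R-spondin receptor and Smoc2 (chr17:14279506-14404790, plus strand) a secreted calcium-binding matrix protein. Ascl2 (chr7:142966829-142969264, minus strand) encodes a transcription factor of the stem cell program, and Gkn3 (chr6:87383256-87388935, minus strand) a secreted gastrokine. Olfm4 (chr14:79984081-80023139, plus strand), a secreted glycoprotein, was not used by the rule. The promoters of 3 of these and of Axin2, the negative feedback gene of the Wnt pathway, are shown because these genes carry the differences described below. Each window runs from 250 bases before to 50 bases after the RefSeq start (GRCm38.p6), 5′ to 3′ along the gene, with capitals at matches on either strand to CCAAT boxes, to TATAA boxes or to the TCF core, searched as CTTTGAA or with its ending changed to give CTTTGAT, else CTTTGTA, else CTTTGTT.
Ascl2, chr7:142969215-142969514, minus strand: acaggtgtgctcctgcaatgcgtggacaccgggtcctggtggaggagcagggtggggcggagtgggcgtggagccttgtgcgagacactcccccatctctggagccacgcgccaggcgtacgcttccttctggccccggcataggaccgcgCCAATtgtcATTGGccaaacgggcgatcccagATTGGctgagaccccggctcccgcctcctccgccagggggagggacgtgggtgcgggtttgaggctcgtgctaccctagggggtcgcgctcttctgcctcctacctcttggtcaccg
Gkn3, chr6:87388886-87389185, minus strand: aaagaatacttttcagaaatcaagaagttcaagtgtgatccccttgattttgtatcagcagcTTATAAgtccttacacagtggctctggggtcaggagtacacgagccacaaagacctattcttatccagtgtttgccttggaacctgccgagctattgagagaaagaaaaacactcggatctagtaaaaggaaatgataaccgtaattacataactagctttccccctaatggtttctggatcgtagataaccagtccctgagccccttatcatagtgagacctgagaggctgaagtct
Olfm4, chr14:80000052-80000351, plus strand: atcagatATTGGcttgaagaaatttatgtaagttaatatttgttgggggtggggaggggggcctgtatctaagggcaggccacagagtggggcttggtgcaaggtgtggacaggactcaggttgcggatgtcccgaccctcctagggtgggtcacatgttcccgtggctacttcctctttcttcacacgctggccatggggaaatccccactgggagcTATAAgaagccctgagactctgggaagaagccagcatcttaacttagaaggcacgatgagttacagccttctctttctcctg
Axin2, chr11:108920099-108920398, plus strand: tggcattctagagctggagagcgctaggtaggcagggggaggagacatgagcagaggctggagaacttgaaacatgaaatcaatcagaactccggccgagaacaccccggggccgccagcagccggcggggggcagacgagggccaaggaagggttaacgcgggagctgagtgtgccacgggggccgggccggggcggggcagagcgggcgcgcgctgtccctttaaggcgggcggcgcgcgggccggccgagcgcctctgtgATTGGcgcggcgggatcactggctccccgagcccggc
The Ascl2 window held 3 CCAAT matches and the Axin2 window 1, the Olfm4 window held 1 CCAAT and 1 TATAA, and the Gkn3 window held 2 overlapping TATAA matches on opposite strands. Among all 32851 promoters of the same length, 37.4% held CCAAT, 24.9% TATAA and 16.9% a TCF core. None of the 4 windows held a TCF core. The Ascl2 and Axin2 windows were 67% and 70% G and C, the Olfm4 window 52.3% and the Gkn3 window 42.7%, beside a median of 52.7% over all promoters. Lgr5 and Smoc2 had no entry.

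At the general limits, 6847 WT and 4678 KO barcodes remained, and the limit on mitochondrial UMIs took more of the KO matrix (7667 to 5881 barcodes) than of the WT matrix (11260 to 10588). CBC barcodes were deeper in KO, with a median of 12482 UMIs (2051 to 52686) against 8751 (1595 to 33917) in WT, and a median of 3002 against 2725 genes. In all they held 2808183 UMIs in WT and 5663838 in KO, and levels are given as the share of a gene in these sums multiplied by 1e+06 (CPM). The matrices shared 57 barcode sequences, among them 1 CBC barcode of each. The epithelial markers were present at a summed 4307 CPM in WT and 4227 CPM in KO. The 7 immune markers summed to 0 CPM in WT and 0.5 CPM in KO, and the 7 markers of stroma and vessels to 1.1 and 0 CPM. Of each list 4 genes were at 0 in both matrices, Ptprc, Cd3e, Cd3g and Tyrobp in the first and Col1a1, Col3a1, Dcn and Cdh5 in the second.

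CBC barcodes took a larger share of the KO matrix. They made up 4.43% (3.95 to 4.94) of the barcodes within the general limits in WT and 8.14% (7.38 to 8.97) in KO, which is 0.88 (0.66 to 1.10) higher on the log2 scale. Among non-mitotic barcodes the shares were 6.13% (5.47 to 6.83) and 9.77% (8.86 to 10.7), and with Paneth barcodes kept in the total they were 2.86% and 6.48%. Before the mitotic limit, the shares passing the stem gene gate were closer, 8.15% in WT and 10.7% in KO. Every form of the share was higher in KO. Because 3 UMIs are reached more easily in a deeper barcode, the gate was also applied after thinning every barcode to 1500 UMIs, where it kept only 21 WT and 34 KO barcodes, 0.307% and 0.727%. A gate of at least 5 UMIs kept 2.37% and 5.96%. The gate genes themselves also differed between the matrices. In non-mitotic barcodes outside the gate, the log2 ratios of KO to WT were 0.77 for Ascl2 and 1.08 for Gkn3. For Lgr5 and Smoc2 they were -0.09 and -0.30. The part of these differences in the share was not tested.

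Fewer of the stem cell barcodes were mitotic in KO. Before the mitotic limit, 558 WT and 502 KO barcodes passed the stem gene gate, 8.15% and 10.7% of those within the general limits. Of these, 255 (45.7%, 41.5 to 49.9) lay over the mitotic limit in WT and 121 (24.1%, 20.4 to 28.1) in KO, a log2 ratio of -0.92 (-1.25 to -0.61). Mitotic barcodes were also a smaller part of the whole, 27.8% in WT and 16.7% in KO. In the gate thinned to 1500 UMIs, the log2 ratio of the share of gate barcodes over the limit was -1.42 (-3.08 to 0.05). Its side of 0 was thus not settled there.

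**Figure D1:**
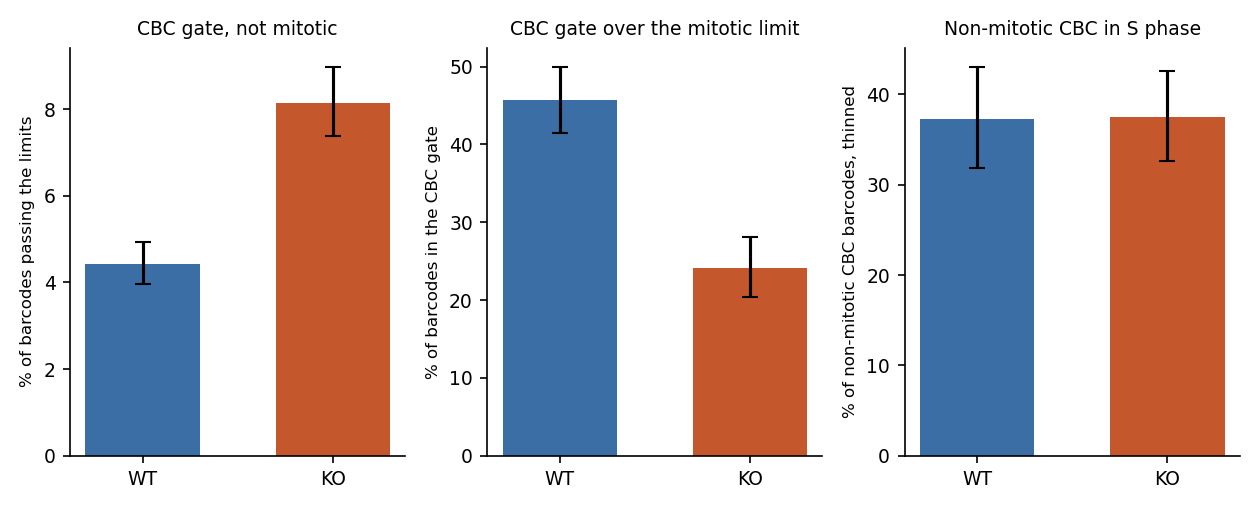
Share of CBC barcodes among barcodes within the limits, share of stem gate barcodes over the mitotic limit, and share of CBC barcodes in S phase after thinning to 1500 UMIs, in percent, for WT and KO. Bars give the share in 1 pooled matrix and lines its 95% Clopper-Pearson interval. The first share was 4.43% in WT and 8.14% in KO, the second 45.7% and 24.1%, and the third 37.3% and 37.5%.

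The label was checked against Olfm4, the marker that the rule did not use. Olfm4 stood at 487.5 CPM (462 to 514) in WT CBC barcodes against 62.0 CPM in the other non-mitotic barcodes, and at 135 CPM (126 to 145) against 18.5 CPM in KO. At least 1 Olfm4 UMI was found in 90.4% (86.5 to 93.5) of WT and 75.3% (70.7 to 79.6) of KO CBC barcodes. In tuft barcodes, which should lack the gene and had a median of 4120.5 UMIs in WT and 7147.5 in KO, the shares were 16.2% and 16.7%. After thinning to 1500 UMIs the CBC shares were 53.1% (47.3 to 58.9) and 21.3% (17.3 to 25.7), against 6.76% and 2.5% of other non-mitotic barcodes. Olfm4 thus marked CBC barcodes of both genotypes, at a lower level in KO.

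Just outside the rule, barcodes with 2 UMIs of the 4 genes (263 in WT, 292 in KO) had 188 CPM of Olfm4 in WT and 34.8 CPM in KO. Just inside, those with exactly 3 (85 in WT, 51 in KO) had 448 and 127 CPM. Between 0.02 and 0.03% of UMIs, Olfm4 stood at 221 CPM in WT and 62.5 CPM in KO, and between 0.03 and 0.04% at 306 and 109 CPM. Across the mitotic limit the levels were alike, 476 CPM below and 442 CPM above it in WT and 124 and 122 CPM in KO.

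The KO cells carried lower Ctnnb1 (chr9:120929216-120960507, plus strand), the gene the deleted enhancer is assigned to. Ctnnb1 stood at 216 CPM (199 to 234) in WT CBC barcodes and at 145 CPM (136 to 156) in KO, or -0.57 (-0.72 to -0.42) on the log2 scale. For the other non-mitotic barcodes the ratio was -0.75 (215 to 128 CPM). The difference between the log2 ratios, CBC minus other, was 0.18 (0.02 to 0.34). At a fixed depth of 1500 UMIs, 32.7% of WT and 20.7% of KO CBC barcodes held a Ctnnb1 UMI. The ratio lay between -0.64 and -0.50 over all alternatives run.

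The log2 ratios of all genes have to be read against their centre and against gene length. Among the 8647 genes with at least 50 UMIs in CBC barcodes, called tested genes here although no p-value could be computed, the median log2 ratio was -0.29, and 66.3% of genes were below 0. It was -0.31 in the other non-mitotic barcodes. The median by quartile of exon length went from 0.22 for the shortest genes through -0.16 and -0.47 to -0.80 for the longest, and was 0.26, -0.17, -0.49 and -0.84 in the other non-mitotic barcodes. The part of this length dependence in any single difference was not tested, and for genes described below the value relative to the median of the gene's own length quartile is given where it matters. Ctnnb1, in the third quartile, had a value of -0.10 relative to it.

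The 4 genes of the gate differed from one another in direction, given here as a description because they chose the cells. Lgr5 was at 101 CPM (89.7 to 114) in WT and 67.6 CPM (61.0 to 74.8) in KO, a log2 ratio of -0.58. Smoc2 was at 247 CPM (229 to 267) and 162 CPM (152 to 173), a ratio of -0.61. Both were lower in KO, while both short genes of the gate were higher. Ascl2 was at 81.9 CPM (71.7 to 93.2) in WT and 123 CPM (114 to 133) in KO, a ratio of 0.59. Gkn3 was at 152 CPM (138 to 167) and 201 CPM (189 to 213), a ratio of 0.40. Relative to their own length quartile the values were 0.22 for Lgr5, -0.14 for Smoc2, 0.37 for Ascl2 and 0.18 for Gkn3. In the other non-mitotic barcodes, which the rule kept low in these genes, the log2 ratios were -0.09, -0.30, 0.77 and 1.08 in this order. In mitotic barcodes, inside and outside the gate, they were -0.70, -0.58, 0.56 and 1.23. Ascl2 and Gkn3 were thus higher in KO outside the CBC barcodes too. The exons sum to 10264 bases in Lgr5 and 6951 in Smoc2, against 1623 in Ascl2 and 856 in Gkn3.

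The makeup of the gate shifted accordingly. Of the 1635 UMIs of the 4 genes in WT CBC barcodes, 17.4% came from Lgr5 and 42.5% from Smoc2, and of 3136 in KO, 12.2% and 29.3%. Ascl2 went from 14.1% to 22.3% and Gkn3 from 26.1% to 36.2%. The median barcode held 5 UMIs of the 4 genes (3 to 23) in WT and 7 (3 to 30) in KO, and 28.1% of WT against 13.4% of KO barcodes entered with exactly 3. All 4 genes were seen together in 37 WT barcodes (12.2%) and 101 KO barcodes (26.5%), and only 1 of them in 46 (15.2%) and 24 (6.30%). Such counts rise with depth, and KO barcodes were the deeper ones.

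Olfm4 was the marker with the largest difference between genotypes among those named in the label. KO stood at -1.85 (-1.98 to -1.72) against WT on the log2 scale, and at -1.69 once the median of the length quartile was subtracted. The other non-mitotic barcodes had almost the same ratio, -1.75, and the difference of the ratios was -0.10 (-0.28 to 0.07). Over all alternatives the ratio in CBC barcodes lay between -1.92 and -1.44. Olfm4 was thus lower in KO inside and outside the CBC barcodes, by amounts that did not differ beyond counting error.

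**Figure D2:**
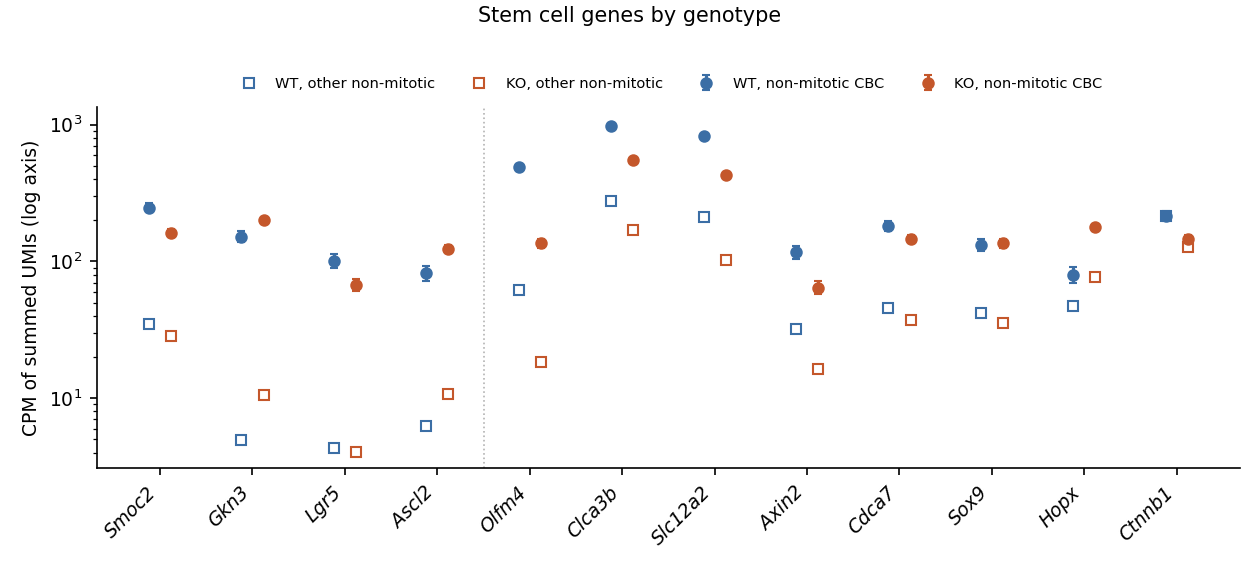
Level of 12 stem cell and Wnt genes in CPM of summed UMIs (log axis) in CBC barcodes (filled points with 95% Poisson intervals) and in the other non-mitotic barcodes (open squares) of WT and KO. Genes left of the dotted line chose the cells. Olfm4 went from 487.5 CPM in WT to 135 CPM in KO and Hopx from 80.1 to 178 CPM.

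Other genes of the stem cell signature had been listed apart from the rule. Of 30, all but Tert, which had 1 UMI, were tested, and 25 of these 29 were at least 2-fold higher in CBC than in other non-mitotic barcodes of both matrices, where 4.71% of all tested genes were (and 4.29% were at least 2-fold lower). Their median log2 ratio to the other barcodes was 1.89 in WT and 2.04 in KO. Bmi1, E2f5, Ephb2 and Hopx were the 4 below 2-fold in at least 1 matrix. The signature was thus higher in CBC than in other non-mitotic barcodes in KO as in WT. This is a description and no check of the label. The cells were chosen by stem cell genes, and the list with earlier results of these data known.

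Between genotypes, 24 of the 29 signature genes were below 0 and 5 above. At least 2-fold lower were 2 of them and 1 was 2-fold higher, beside 14.3% and 0.659% of all tested genes. The median was -0.35 in CBC and -0.59 in other non-mitotic barcodes, against -0.29 and -0.31 for all tested genes. Slc12a2, a sodium, potassium and chloride cotransporter, was at 820 CPM in WT and 431 CPM in KO (log2 ratio -0.93). Relative to its length quartile it was at -0.12. Clca3b, a member of the calcium-activated chloride channel regulators, was at 985 and 551 CPM (-0.84, or -0.67 relative to its length quartile). Hopx, a homeodomain protein also known from slowly cycling crypt cells, went the other way, from 80.1 to 178 CPM (1.15, 0.94 to 1.36), 0.93 above the median of its length quartile.

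Several further signature genes were compared with genes of their own length. Prom1, a pentaspan membrane protein, was at 182 CPM in WT and 102 CPM in KO, which relative to its length quartile was -0.02. Lrig1, an inhibitor of ErbB receptors, was at 43.1 and 29.0 CPM (-0.11 relative to its quartile), and Cdca7, a cell division gene, at 182 and 146 CPM (-0.16). Sox9, a transcription factor of crypt base cells, stood at 132 CPM in WT and 135 CPM in KO (0.03, -0.15 to 0.22) and so did not differ beyond counting error. Rgmb, a BMP coreceptor, was at 21.4 and 32.5 CPM (0.60, 0.18 to 1.05). Relative to their length quartiles, Sox9 was at 0.20 and Rgmb at 1.41. Across the list, after subtracting the length quartile medians, 19 genes were below and 10 above 0, with a median of -0.14.

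Targets and feedback genes of the Wnt pathway had a median log2 ratio of -0.66 in CBC and -0.63 in other non-mitotic barcodes. In the gate thinned to 1500 UMIs the median was -0.046 (-0.68 to 0.61), so its side of 0 was not settled there. Of 18 listed, 13 were tested, 10 below and 3 above 0, where 66.3% of all tested genes were below 0. At least 2-fold lower were 2 of the 13, near the 14.3% of all tested genes. Notum and Apcdd1, feedback inhibitors, were at 0. Axin2 (chr11:108920349-108950783, plus strand) was at 116 CPM (104 to 130) in WT and 64.4 CPM (58.0 to 71.4) in KO, or -0.85 (-1.07 to -0.63) on the log2 scale, against -0.99 in other non-mitotic barcodes (32.3 to 16.3 CPM). Relative to its length quartile Axin2 was at -0.39.

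The other Wnt targets diverged. Rnf43, a ubiquitin ligase that removes Frizzled receptors, was at 60.5 CPM in WT and 32.3 CPM in KO, and Cd44, a hyaluronan receptor, at 63.4 and 37.6 CPM. Ephb2, a receptor that positions cells along the crypt, was at 62.7 and 28.8 CPM (-1.12), and Tiam1, an exchange factor for Rac, had a ratio of -1.37. Myc, the growth regulator, was at 24.2 and 33.0 CPM (0.45, 0.04 to 0.87), and Ccnd1, cyclin D1, at 163 and 166 CPM (0.03, -0.13 to 0.19). Relative to their length quartiles, Rnf43 was at -0.44, Cd44 at -0.29, Ephb2 at -0.32, Tiam1 at -0.57, Myc at 0.22 and Ccnd1 at 0.50. The list had a median of -0.23 after the length quartile medians were subtracted, with 9 genes below and 4 above 0. Targets were 2-fold higher in CBC than in other barcodes of both matrices in 10 of 13 cases, Ccnd1 not among them.

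Receptors and transducers of the pathway lay near the general trend for their length. Of 22 listed, 18 were tested, 17 below 0, with a median of -0.67 in CBC and -0.74 in other barcodes. After subtracting length quartile medians the list centred at 0.01, with 9 genes on each side. At least 2-fold lower were 4 of the 18, beside 14.3% of all tested genes, among them Apc, the scaffold of the destruction complex, at 54.5 CPM in WT and 21.9 CPM in KO, the coreceptor Lrp6 at 49.5 and 24.2 CPM and its relative Lrp5 with a log2 ratio of -1.53. Csnk1a1, the kinase that primes β-catenin for destruction, was at 258 and 163 CPM (-0.66). Relative to their length quartiles, Apc was at -0.51, Lrp6 at -0.23, Lrp5 at -0.72 and Csnk1a1 at 0.14.

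Genes of the other niche pathways were measured in small numbers. Of 13 Notch genes 8 were tested, 7 below 0, with a median of -0.57. After subtracting length quartile medians it was -0.35, with 6 genes below and 2 above 0. Notch1, the receptor, was at 43.1 CPM in WT and 29.8 CPM in KO, and Hes1, its target, at 115 and 76.5 CPM. Relative to their length quartiles, Notch1 was at 0.27 and Hes1 at -0.81. Rbpj, the DNA-binding partner, was at 34.5 and 10.2 CPM (-1.75, or -0.95 relative to its length quartile). The ratio of Rbpj in CBC barcodes less that in other non-mitotic barcodes was -0.68. Of 12 BMP genes 10 were tested, with a median of -0.68. After subtracting length quartile medians it was -0.17, with 7 genes below and 3 above 0. Id1 and Id3, targets of BMP signals, had ratios of 0.10 and 0.07, and Smad7, an inhibitor, of -1.30.

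EGF receptor genes were the list with the lowest median among niche pathways, -1.11 over 4 tested of 12, and -1.10 in other barcodes. After subtracting length quartile medians it was -0.65 in CBC barcodes, with 3 genes below and 1 above 0. Erbb3 was at 80.8 CPM in WT and 29.8 CPM in KO (-1.44), Erbb2 had a ratio of -0.78 and Errfi1, a feedback inhibitor, of -2.16. Egfr itself was at 16.4 and 13.1 CPM (-0.33, -0.88 to 0.24), or 0.48 relative to its length quartile.

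**Figure D3:**
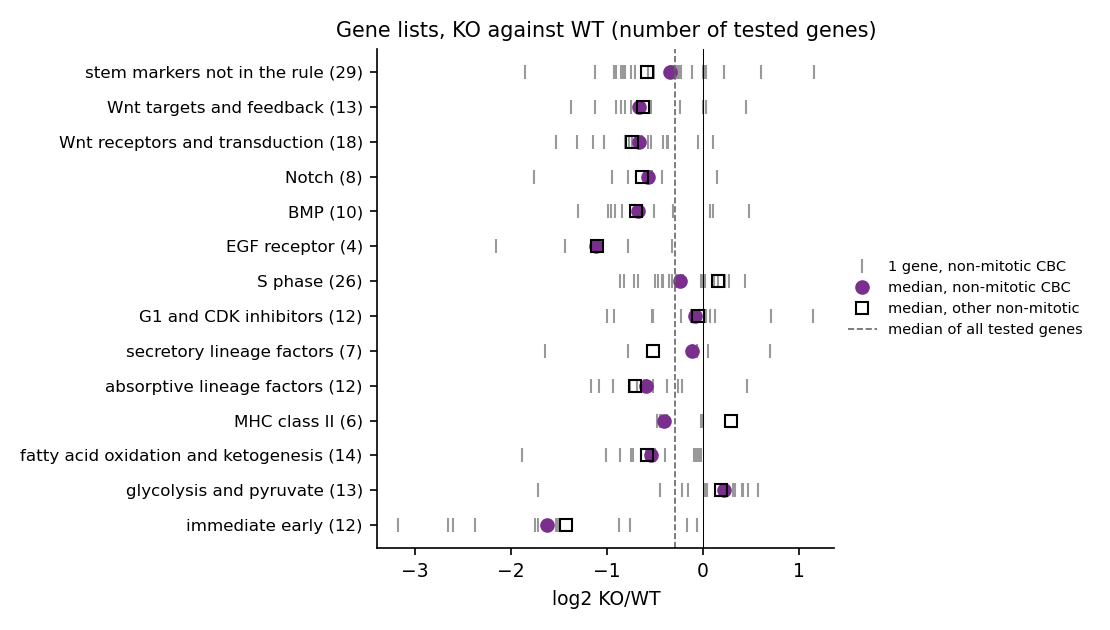
Log2 ratio of KO to WT by gene list, with the number of tested genes in brackets. Ticks are single genes in CBC barcodes, filled points list medians in CBC barcodes, open squares medians in other non-mitotic barcodes, and the dashed line the median of all tested genes (-0.29). Immediate early genes had a median of -1.63 and glycolysis genes of 0.22.

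S phase genes, which the mitotic limit did not use, were counted in each class of barcodes. After thinning to 1500 UMIs, 37.3% (31.8 to 43.0) of WT and 37.5% (32.7 to 42.6) of KO CBC barcodes held at least 3 UMIs of the 26 S phase genes. Before thinning the shares were 90.1% and 94.5%. In other non-mitotic barcodes the thinned shares were 10.9% (10.0 to 11.9) and 14.5% (13.4 to 15.7), and in mitotic barcodes 21.6% and 23.1%. CBC barcodes thus held S phase genes more often than either class in both genotypes. Their shares in WT and KO did not differ beyond counting error. The rule kept CBC barcodes low and mitotic barcodes high in mitotic genes, so the contrast with mitotic barcodes is partly set by it. The other non-mitotic barcodes pooled several cell types. Neither contrast therefore shows a trait particular to CBC barcodes.

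Mki67, a proliferation gene outside the rule, was at 268 CPM in WT and 89.2 CPM in KO (-1.59), against -1.47 in other non-mitotic barcodes. Relative to its length quartile Mki67 was at -0.78. It shares its timing with the 6 genes whose sum was limited. Of the 14 mitotic markers, which include those 6, Mki67 had the lowest ratio. The list had 7 genes below and 7 above 0, with a median of -0.12. After subtracting length quartile medians, 4 were below and 9 above 0, with a median of 0.19. Because the rule limited the sum of 6 of the 14 genes in both matrices, nothing is drawn from these counts and medians. Relative to their length quartiles, the markers outside the rule were Bub1 (-1.03), Mki67 (-0.78), Plk1 (-0.55), Kif11 (-0.13), Ccnb2 (0.05), Tpx2 (0.14), Aurka (0.23) and Aurkb (0.24). The S phase list had 16 genes below and 10 above 0 with a median of -0.24 in CBC barcodes and 0.15 in other non-mitotic barcodes. Rrm2, a ribonucleotide reductase subunit, was at 29.6 CPM in WT and 24.4 CPM in KO while in other barcodes it went from 14.5 to 22.9, a difference of log2 ratios of -0.94 (-1.37 to -0.52). Dtl, a subunit of a ubiquitin ligase of S phase, went from 59.8 to 28.4 CPM in CBC and from 17.4 to 14.9 CPM in other barcodes. Dut, which clears dUTP, was at 147 and 178 CPM (0.27, against 0.75 in other barcodes, and -0.41 in the gate thinned to 1500 UMIs).

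Among G1 genes, 12 were tested with a median of -0.09. Cdk4 was at 192 CPM in WT and 313 CPM in KO (0.71, 0.57 to 0.85), and Ccnd2, cyclin D2, at 459 and 443 CPM (-0.05, -0.15 to 0.05). Cdkn1c, an inhibitor of cyclin-dependent kinases, went from 5.34 to 11.8 CPM (1.15), a ratio that became -0.67 without the barcodes rich in markers of another lineage described below.

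Lineage factors showed no common direction on the secretory side. Of 11 secretory factors 7 were tested, 5 below and 2 above 0, with a median of -0.11 in CBC barcodes, which lay between -0.58 and 0.43 over the alternatives. Sox4, a factor upstream of tuft and enteroendocrine cells, was at 266 CPM in WT and 255 CPM in KO (-0.06), and was over 2-fold higher in CBC than in other barcodes in both (2.27 and 2.28 on the log2 scale). Foxa3, a goblet cell factor, was at 49.9 and 80.9 CPM (0.70). Neurog3, which starts the enteroendocrine fate, was at 11 and 3.53 CPM, but the 31 WT UMIs lay in 7 barcodes and the 20 KO UMIs in 6, with 64.5% and 70.0% of them in the top 3.

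On the absorptive side 12 of 13 factors were tested, 11 below 0, with a median of -0.60, against -0.71 in other barcodes. Onecut2, a homeodomain factor, was at 177 CPM in WT and 105 CPM in KO (-0.76, against -1.35 in other barcodes, and 0.031 in the thinned gate). Klf4, a factor of differentiated cells, had a ratio of -1.17 and Hnf4g, an enterocyte factor, of -1.09. Klf4 and Hnf4g were lower in CBC than in other non-mitotic barcodes of both matrices.

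The MHC class II genes, whose products present antigen, parted between CBC and other barcodes. Summed over the list, their level in CBC barcodes was 1799 CPM in WT and 1595 CPM in KO, while in other non-mitotic barcodes it was 1728 and 2432 CPM. The median ratio over the 6 tested of 7 was -0.40 in CBC and 0.29 in other barcodes, with all 6 below 0 in CBC, beside 66.3% of all tested genes. Cd74, the invariant chain, was at 947 CPM in WT and 946 CPM in KO (0.00, -0.07 to 0.07) against 0.61 in other barcodes, and H2-Ab1, a class II beta chain, was at 304 and 235 CPM (-0.37, against 0.27). At 1500 UMIs, 48.8% of WT and 45.1% of KO CBC barcodes held at least 3 UMIs of the list, against 39.4% and 54.6% of other non-mitotic barcodes. The other barcodes also differed in makeup, with goblet markers at 51502 CPM in WT and 28834 CPM in KO and enterocyte markers at 11980 and 21463 CPM. The part of makeup in the MHC class II difference was not tested.

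Metabolic genes of the CBC barcodes were split between fat and sugar use. Of 15 genes of fatty acid oxidation and ketone synthesis 14 were tested, and all 14 were below 0, beside 66.3% of all tested genes, with a median of -0.55 in CBC and -0.59 in other barcodes. Cpt1a, which admits fatty acids to mitochondria, was at 55.6 CPM in WT and 15 CPM in KO (-1.89). Hadha, an enzyme of beta oxidation, was at 188 and 103 CPM (-0.86). Relative to their length quartiles, Cpt1a was at -1.08 and Hadha at -0.06. Relative to length quartile medians, 12 of the 14 were below 0 with a median of -0.26.

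Of 13 glycolysis genes 9 were above and 4 below 0, with a median of 0.22 in CBC and 0.18 in other barcodes. Gapdh was at 634 CPM in WT and 837 CPM in KO (0.40) and Ldha, which makes lactate, at 411 and 611 CPM (0.57). Hk2, a hexokinase, was at 100.1 and 30.4 CPM (-1.72). After subtracting length quartile medians the list median was 0.49.

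Immediate early genes, whose transcription responds within minutes to growth factors and stress, were lower throughout in KO. All 12 tested of 14 were below 0, beside 66.3% of all tested genes, and 8 were at least 2-fold lower, beside 14.3%, with a median of -1.63 in CBC and -1.43 in other barcodes. Their summed level in CBC barcodes was 1629 CPM in WT and 653 CPM in KO. Jun was at 483 and 169 CPM (-1.51), Fosb at 122.5 and 13.6 CPM (-3.17) and Egr1 at 172 and 28.4 CPM (-2.60). At 1500 UMIs, 40.9% of WT and 11.8% of KO CBC barcodes held at least 3 UMIs of the list. The median share of mitochondrial UMIs was 7.82% in WT and 6.57% in KO. The regenerative list, of fetal-like and injury-induced genes, had only 2 of 11 tested.

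Over all genes, 57 were at least 2-fold higher and 1240 at least 2-fold lower in KO CBC barcodes, and relative to the median of all tested genes 2.88% were higher and 5.53% lower. Among genes with at least 100 UMIs that were at least as high in CBC as in other barcodes, the largest ratios above 0 after Banp (1.68) were those of Nme4 (1.26), Arhgdig (1.20), Lsm7 (1.17), Kcne3 (1.16), Hopx (1.15), Alyref (1.15), Nutf2 (1.15), Srm (1.14) and Rgcc (1.11). Kcne3, a subunit of epithelial potassium channels, was at 144 CPM in WT and 322 CPM in KO, and Srm, spermidine synthase, at 37.0 and 81.4 CPM. All 10 were above 0 in other non-mitotic barcodes too, by 0.70 to 1.44.

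Among the same genes, the ratios farthest below 0 were those of Tsix (-4.18), Fosb (-3.17), Hist1h4d (-2.76), Hist1h3c (-2.75), Kcnq1ot1 (-2.61), Egr1 (-2.60), Hist1h1b (-2.47), Hist1h3e (-2.41), Hist1h2ab (-2.32) and Hist2h2ac (-2.20). Of these, 6 are histone genes, whose copies share sequence, so reads could be split among them. Tsix and Kcnq1ot1 are antisense to Xist and Kcnq1, and how the counting treated strand is not given in the sources used here. Their levels are uncertain for these reasons.

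**Figure D4:**
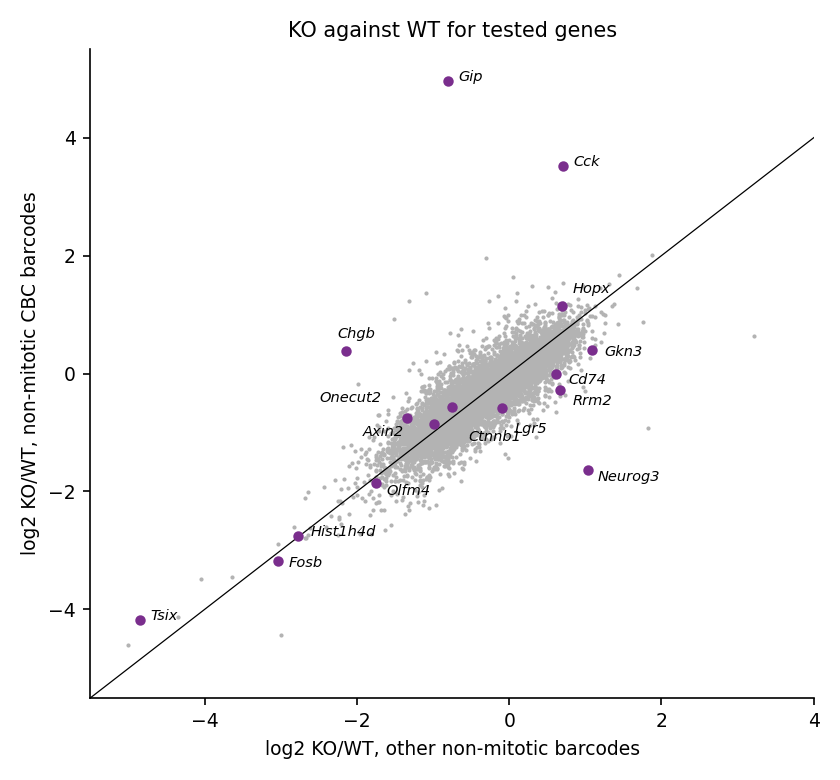
Log2 ratio of KO to WT in CBC barcodes (vertical) against the same ratio in other non-mitotic barcodes (horizontal) for the 8647 tested genes with a finite ratio in both. The line marks equal ratios, and the named genes are those described in the text. Olfm4 (-1.85 and -1.75) lay on it, and Cd74 and Rrm2 below it.

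Few genes differed between genotypes in CBC barcodes beyond what the other barcodes showed. The difference of the log2 ratios had a median of -0.01 with quartiles at -0.18 and 0.16, and 43 genes (0.497%) were at least 2-fold higher and 34 (0.393%) at least 2-fold lower by it. Among genes at least as high in CBC as in other barcodes, the highest were Lrmp (1.01), Ap4m1 (0.91), Rhobtb3 (0.88), Tubb2b (0.86), Mmp14 (0.83) and Fgfr2 (0.82). Tubb2b, a tubulin, was at 43.1 CPM in WT and 42.9 CPM in KO in CBC barcodes and at 17.3 and 9.48 CPM in other barcodes. Among the same genes, which also had at least 100 UMIs, the lowest were Rrm2 (-0.94), Hist1h2be (-0.93), Abhd10 (-0.88), Polr3f (-0.87), Mphosph9 (-0.86) and Dtl (-0.85). Lrmp is also high in tuft cells, and its KO to WT ratio of -0.71 became 0.52 without the barcodes rich in markers of another lineage.

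Genes that set CBC barcodes apart from other non-mitotic barcodes beyond the rule recurred in both genotypes. Since the cells were chosen by stem cell genes, this is a description. A930009A15Rik (4.87 on the log2 scale in WT, 4.68 in KO), the glutamate transporter Slc1a2 (4.2, 3.73), Wfdc10 (3.6, 3.76) and Sfrp5 (3.27, 3.55), a secreted Wnt antagonist, led the order. A930009A15Rik (chr10:115569986-115582448, plus strand, GRCm38) lies wholly inside Lgr5, on the opposite strand, so its reads may not be separate from those of a gate gene. Among those next in order were Rgcc (3.09, 3.14), the vasoconstrictor peptide gene Edn1 (3.01, 3.21), Olfm4 (2.97, 2.87), Nr2e3 (3.13, 2.83) and Acot1 (3.02, 2.63). Igfbp4, which binds insulin-like growth factors, was at 2.44 and 2.46. Edn1 was lower in KO, 7.77 against 22.1 CPM, whereas Rgcc was higher, 53.7 against 24.9 CPM (but at -0.35 on the log2 scale in the thinned gate), and Sfrp5 was at 32.5 against 23.1 CPM.

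Within a genotype the CBC barcodes were ordered by the share of the 4 gate genes and split into 3 nearly equal groups (tertiles), using those with at least 4000 UMIs. Olfm4 was at 369, 446 and 702 CPM from the lowest to the highest tertile in WT and at 104, 149 and 166 CPM in KO. Slc12a2 followed, at 685, 800 and 1041 CPM in WT and 352, 423 and 561 CPM in KO. The summed stem cell signature went from 3282 to 5004 CPM in WT and from 2037 to 2994 CPM in KO. Every tertile of KO stood below the lowest tertile of WT in Olfm4, in Slc12a2 and in the summed signature. Over all CBC barcodes, relative to their length quartiles, the KO to WT ratio of Olfm4 was at -1.69 and that of Slc12a2 at -0.12.

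Other genes ran less steeply or the opposite way. Axin2 was at 100.2, 120 and 130 CPM in WT, a log2 ratio of highest to lowest tertile of 0.37 (-0.04 to 0.78), and at 54.3, 69.7 and 73.5 CPM in KO. Ctnnb1 was at 202, 216 and 230 CPM in WT and 143, 151 and 144 CPM in KO. Muc2, the goblet cell mucin, was at 1286, 802 and 499 CPM in WT and 330, 199 and 188 CPM in KO, and the summed S phase genes were at 1822, 1578 and 1382 CPM in WT and 1517, 1507 and 1295 CPM in KO. Depth moved with this order too, from a median of 9805 UMIs in the lowest to 7049 in the highest tertile in WT and from 16089 to 10172 in KO, and its part was not tested. Not every signature gene followed: Prom1 was at 171, 165 and 224 CPM and Ephb2 at 62.8, 55.7 and 72.8 CPM in WT.

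Some CBC barcodes also held markers of another lineage. With limits on the UMI share set after the values were seen, 73 WT (24.1%) and 69 KO barcodes (18.1%) exceeded at least 1 of the 5 limits. Goblet markers (3%) were exceeded in 33 and 22 barcodes, Paneth markers (10%) in 22 and 25, tuft markers (0.1%) in 9 and 5 and enterocyte markers (0.8%) in 8 and 9. Whether such barcodes were doublets was not tested. Without them Olfm4 was at 557 CPM in WT and 151 CPM in KO, Lgr5 at 104 and 69.9, Ascl2 at 87.3 and 128, Axin2 at 136 and 67.1 and Slc12a2 at 925 and 461 CPM, so each of these genes kept its direction.

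Enteroendocrine markers (0.3%) were exceeded by 8 WT (2.64%, 1.15 to 5.14) and 17 KO barcodes (4.46%, 2.62 to 7.05). The list, at 396 CPM in WT and 1061 CPM in KO over all CBC barcodes with 7 genes above and 1 below 0, was carried by these few barcodes, which held 80.0% of its 1113 WT UMIs and 95% of its 6007 KO UMIs. Without them it was at 81.7 CPM in WT and 55.2 CPM in KO. Gip, an incretin hormone, was at 12.5 CPM in WT and 387 CPM in KO, and 98.1% of the 2191 KO UMIs lay in 3 barcodes. Cck, the satiety hormone cholecystokinin, was at 15.7 and 181 CPM, with 93.9% of the KO UMIs in 3 barcodes. Chgb, a protein of secretory granules, was at 239 and 313 CPM, and without the barcodes over the limit at 19.8 CPM (14.9 to 25.8) and 6.30 CPM (4.36 to 8.80).

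The enteroendocrine-rich CBC barcodes held a median of 5 UMIs of the 4 gate genes (3 to 14) in WT and 8 (4 to 11) in KO, of which the rule itself required 3. Olfm4, outside the rule, stood in them at 327 CPM (213 to 478) and 102 CPM (67.3 to 149). Seen from the other side, 208 WT and 106 KO barcodes within the general limits exceeded the enteroendocrine limit, and 3.85% (1.67 to 7.44) and 16% (9.63 to 24.4) of these were CBC barcodes. Of barcodes over the Paneth limit, 3.25% (2.05 to 4.88) in WT and 7.67% (5.02 to 11.1) in KO were CBC barcodes, and of all barcodes within the general limits 4.43% and 8.14%. The CBC share was thus higher in KO in these sets, and KO CBC barcodes were deeper. It was not higher over every limit. Of barcodes over the tuft limit, 9.18% (4.29 to 16.7) in WT and 8.20% (2.72 to 18.1) in KO were CBC barcodes. Over the goblet limit the shares were 1.80% (1.24 to 2.52) and 2.54% (1.60 to 3.82), and over the enterocyte limit 0.50% (0.22 to 0.98) and 0.60% (0.28 to 1.14). The WT and KO intervals overlapped for the tuft, goblet and enterocyte limits.

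**Figure D5:**
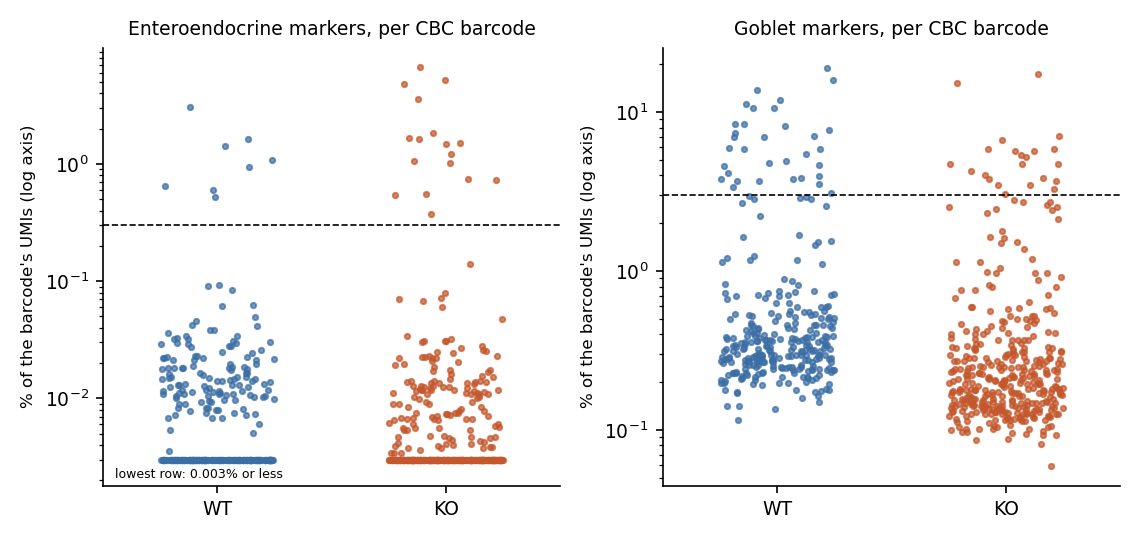
Share of UMIs from enteroendocrine (left) and goblet (right) markers in each of the 303 WT and 381 KO CBC barcodes, in percent on a log axis. The dashed lines mark the limits of 0.3% and 3%, and sideways scatter carries no value. Over the first limit lay 8 WT and 17 KO barcodes, over the second 33 and 22.

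The remaining marker lists had the following summed levels in CBC barcodes. Paneth markers were at 44722 CPM in WT and 32900 CPM in KO, and at 44069 and 29879 CPM in other non-mitotic barcodes. Lyz1, one of them, was found in all 303 WT and all 381 KO CBC barcodes. All 10 tested were below 0, but they include Defa genes, which the rule limited. Goblet markers were at 12474 and 7246 CPM, with all 8 below 0. Of all tested genes 66.3% were below 0. In the gate thinned to 1500 UMIs, Lyz1 (0.47), Spink4 (0.95), Tff3 (0.39) and Muc2 (0.18) were above 0, and Spink4 was also above 0 with at least 5 UMIs of the gate genes (0.23) and without other-lineage barcodes (0.0061). Tuft markers were at 89.0 and 59.3 CPM and enterocyte markers at 1453 and 1931 CPM. The part of Paneth and goblet RNA in the ratios above was not tested, but barcodes over the limits on those markers were among those left out in the values without other-lineage barcodes.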

How the data were processed

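Single-cell RNA was captured with a 10x Genomics 3-prime kit. The deposited matrices, 1 per genotype, held raw UMI counts per gene and barcode, which the authors had made with Cell Ranger (4.0.0 per the file headers, 2.1.1 in the submitters' processing notes, with build mm10). Poly(A) priming counts 1 end of a transcript, so levels were not compared between genes. The study marked doublets with DoubletFinder. No doublet caller was run here. As alternatives, the top 5% of all barcodes of a matrix by UMIs, or CBC barcodes rich in markers of another lineage, were left out. The first kept 302 of 303 WT and 377 of 381 KO CBC barcodes and so is no check for doublets among them.

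Counts were summed over barcodes of a class and matrix and expressed as CPM (python 3.11.15, numpy 2.4.6, scipy 1.17.1, pandas 2.3.3, figures in matplotlib 3.10.9). Log2 ratios carry conditional binomial intervals, levels exact Poisson intervals and shares Clopper-Pearson intervals, all at 95%. Genes with at least 50 UMIs over CBC barcodes of both matrices were kept, which is called tested in the text although no p-value could be computed, and called means 2-fold or more. Thinning drew 1500 UMIs per barcode without replacement. The other non-mitotic barcodes were those within the general limits outside the stem gene gate and below the mitotic limit. Tuft barcodes, the reference that should lack Olfm4, held at least 5 UMIs and 0.1% of UMIs of tuft markers. Exon lengths and positions came from GENCODE M21, which held 27722 of 27998 gene identifiers.

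The members and the gene lists were chosen with earlier results of these data known. The genes named were, for each list, the 2 with the most UMIs and the 2 with the largest ratio relative to the median of tested genes; among genes with at least 100 UMIs, the 10 highest and 10 lowest ratios and the 6 highest and lowest differences of ratios over the 3500 genes also at least as high in CBC as in other non-mitotic barcodes of both matrices, and the 20 highest against other barcodes; and Ctnnb1, Lgr5, Ascl2, Smoc2, Gkn3, Olfm4, Axin2 and Mki67. Other list genes (Prom1, Lrig1, Cdca7, Rgmb, Rnf43, Cd44, Myc, Lrp6, Egfr and Muc2, for example) were added after their values were seen. Some genes that the rule names are not reported here. The script for ratios was tested on simulated counts.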

Additional observations from a re-analysis of the deposited data

How the results depend on the processing

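No paired analysis was possible because each genotype was 1 pooled matrix, and for the same reason no replicate could be left out. Of 12 alternatives 11 were planned and 1, leaving out barcodes over a limit on markers of another lineage, was chosen after seeing the data. The KO share of CBC barcodes was above the WT share in every alternative that gave a value. The share over the mitotic limit was lower in KO in each of them, but its interval in the thinned gate reached past 0. Olfm4, Axin2, Ctnnb1, Lgr5 and Smoc2 kept ratios below 0 and Ascl2, Gkn3 and Hopx above 0 in all of them, Ascl2 only just (0.01 at the lowest). A 15% mitochondrial limit and a 5% Defa limit moved none of the log2 ratios of shares, counts of genes and list medians past their limits. The same held on leaving the 7 genes above 1% of UMIs out of the total and on averaging CPM per barcode. It also held without the top 5% of all barcodes of a matrix by UMIs. That limit kept 302 of 303 WT and 377 of 381 KO CBC barcodes, so little change was possible. Calling S phase from 2 UMIs moved the shares of CBC barcodes to 59.7% in WT and 58.3% in KO and kept their log2 ratio. The cause of the changes below was not tested, beyond fewer barcodes or genes by construction.

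With barcodes thinned to 1500 UMIs before the gate (21 WT and 34 KO), the log2 ratio of shares was 1.24. That of the share over the mitotic limit was -1.42 (-3.08 to 0.05). In this gate 84 genes were lower and 26 higher in KO, and 44 were higher and 47 lower than in other barcodes. The S phase log2 ratio was -0.37. List medians were -0.046 for Wnt targets, 0.43 for secretory factors, -0.82 for MHC class II and -1.28 for immediate early genes. Ratios that changed sign were Atf3 0.46, Cdkn1c -0.87, Dut -0.41, Igfbp4 0.17, Lrmp 0.30, Lyz1 0.47, Muc2 0.18, Onecut2 0.031, Rgcc -0.35, Slc1a2 0.72, Spink4 0.95, Tff3 0.39 and Wfdc10 0.13. With at least 5 UMIs of the gate genes the log2 ratio of shares was 1.33, 89 genes were higher, and Avil (0.71) and Spink4 (0.23) changed sign. Without other-lineage barcodes the medians were 0.11 for secretory factors and -0.86 for enteroendocrine markers, and Avil 1.58, Cck -0.15, Cdkn1c -0.67, Chgb -1.57, Gip -0.86, Lrmp 0.52 and Spink4 0.0061 changed sign. At a minimum of 10 UMIs 2066 genes were lower and 204 higher in KO, and 736 higher and 617 lower than in other barcodes. At 200 UMIs these counts were 389, 26, 172 and 161, with medians of 0.32 for secretory and -0.22 for regenerative genes. With tertiles ordered by Olfm4 the log2 ratio of highest to lowest tertile was 0.84 in WT and 0.51 in KO for Slc12a2, 0.96 in WT for Axin2 and -1.31 in KO for Muc2. Depth limits what a gate on 3 UMIs can show, and it differed between the matrices.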
